A study of Mus musculus with 24 samples.

Results

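Quadriceps muscle of gene-edited delEx44 mice (corrected) was compared with quadriceps of wild-type (WT) mice after both had run downhill for 1 month. All libraries labelled as corrected or WT with downhill running were used: 2 corrected and 2 WT libraries, 4 of the 24 in the series. In delEx44 mice, used to model Duchenne muscular dystrophy, exon 44 of the dystrophin gene Dmd is deleted. The corrected group came from that strain and received an intraperitoneal injection on postnatal day 4 of 2 AAV9 vectors, a self-complementary one for a guide RNA and a single-stranded one for SpCas9, at 8e13 vector genomes per kg each. delEx44 mice that ran (2 libraries) are given beside them, and WT is the group to which both are set. The labels give all 3 run groups a C57BL/6 background, an age of 8 weeks and running at a decline of 15 degrees and 12 m per min on alternate days. They give no sex, and nothing on a vector or mock injection of WT or delEx44 mice. The labels number the libraries but do not say that each is a separate animal, so p-values measure the spread between libraries. Sedentary muscle at 4 weeks (3 libraries per genotype) shared 1 fit with the run libraries, and so entered the estimate of spread behind their p-values. It also served for an interaction test, for gene sets chosen at 4 weeks and for side-by-side values. Muscle at 18 months (3 per genotype, a separate table) served only for side-by-side values. Corrected mice at 4 weeks were also injected on postnatal day 4, at the same doses. Those at 18 months were injected on that day with 2.5e14 vector genomes per kg for the guide and 5e13 for SpCas9.

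Dystrophin links the actin skeleton of a muscle fibre to a complex of membrane proteins and through them to the matrix outside, and this link protects the membrane during contraction. Downhill running makes muscles lengthen under load, the kind of contraction that tears fibres without dystrophin most readily. Torn fibres draw in macrophages and are rebuilt from satellite cells, and the new fibres pass through a stage with embryonic myosins and fetal acetylcholine receptors.

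The deleted exon is shown because its length is what breaks the reading frame. In the GENCODE vM21 transcript Dmd-203, with 79 exons, exon 44 has 148 bases (chrX:84022265-84022412, GRCm38, plus strand). Division of that length by 3 leaves a remainder of 1. When exon 43 is joined directly to exon 45, the first stop codon in frame is met in exon 45, after 46 of its bases. In the sequences below, printed 5′ to 3′, the capitals mark that stop codon.
last 30 bases of exon 43: acttcatagaatgtacaaggaacgacaagg
exon 44: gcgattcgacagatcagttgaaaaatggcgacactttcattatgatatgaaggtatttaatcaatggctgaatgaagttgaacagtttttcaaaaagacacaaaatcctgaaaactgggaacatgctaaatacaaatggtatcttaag
exon 45 up to the stop: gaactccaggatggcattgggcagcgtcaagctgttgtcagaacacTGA
The counts are per gene and show neither which exons a transcript held nor dystrophin protein.

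Counts in genes ranged between 30552867 and 38090522 per library over the 15 libraries of the 4-week and run table. The skeletal muscle label held in all 4 libraries: Acta1, skeletal actin, stood at 42785 and 37049 CPM (counts scaled to the size of each library) in corrected and at 36210 and 35206 CPM in WT. WT replicate 1 stood apart from the other 14 libraries in its Y-linked transcripts. It held 1 count of Ddx3y, 0 of Uty, 0 of Kdm5d and 2 of Eif2s3y, while WT replicate 2 held 3766 counts of Ddx3y and the corrected libraries 3140 and 2440. Xist had at most 5 counts in any of the 15 libraries, WT replicate 1 included. Among the 4 libraries it also held the most fat transcripts: the mean level of 20 adipocyte genes was 6.33 and 5.19 log2 CPM in corrected replicates 1 and 3, against 6.63 and 4.43 log2 CPM in WT replicates 1 and 2. Ucp1 of brown fat was at 40.9 and 9.05 CPM in corrected, against 23.4 and 0 CPM in WT. The part of these differences in the results was not tested, and values without that library are given below where they moved a result. The 2 corrected libraries also stood apart from each other. Replicate 3 was the higher of them for 50.7% of all genes, but for 38 of 38 collagen and matrix genes, 28 of 30 macrophage genes and 15 of 16 tendon and cartilage genes. It was the higher for 0 of 35 genes of oxidative phosphorylation, 0 of 26 of fatty acid oxidation, 0 of 20 adipocyte genes and 1 of 23 of glycolysis and glycogen.

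Of 15013 genes tested, 3 passed an adjusted p of 0.05 between corrected and WT muscle (0.02%), by edgeR's quasi-likelihood test with Benjamini-Hochberg adjustment. Gm15446 rose, and Dmd and Nbea fell. For comparison, 2239 genes (14.9%) rose and 2131 (14.2%) fell in delEx44 against the same WT libraries. The median size of the difference was 0.13 log2 units for corrected and 0.27 log2 units for delEx44 muscle. For 11827 of the 15007 genes with an interval (78.8%), the 95% interval of the corrected minus WT difference lay within 1 log2 unit of 0 on either side. The count of calls moved with the test and the libraries. DESeq2 called 75 genes, 51 higher and 24 lower, and limma-voom called 4. It was 25 without corrected replicate 1, 1 without corrected replicate 3, 0 without WT replicate 1 and 7 without WT replicate 2, the last including the Y-linked Ddx3y, Eif2s3y, Kdm5d and Uty. Fits on the 6 run libraries or the 4 compared libraries alone called 0, with 1024 and 1089 genes at an unadjusted p under 0.05.

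At an unadjusted p under 0.05, 637 genes were higher (4.24%) and 818 lower (5.45%) in corrected than in WT muscle. Both corrected libraries lay above both WT libraries for 2853 genes (19%) and below both for 3079 (20.5%). These shares are the background for the gene groups that follow. Some genes were members of several lists, so the lists are not independent of each other.

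**Figure D1:**
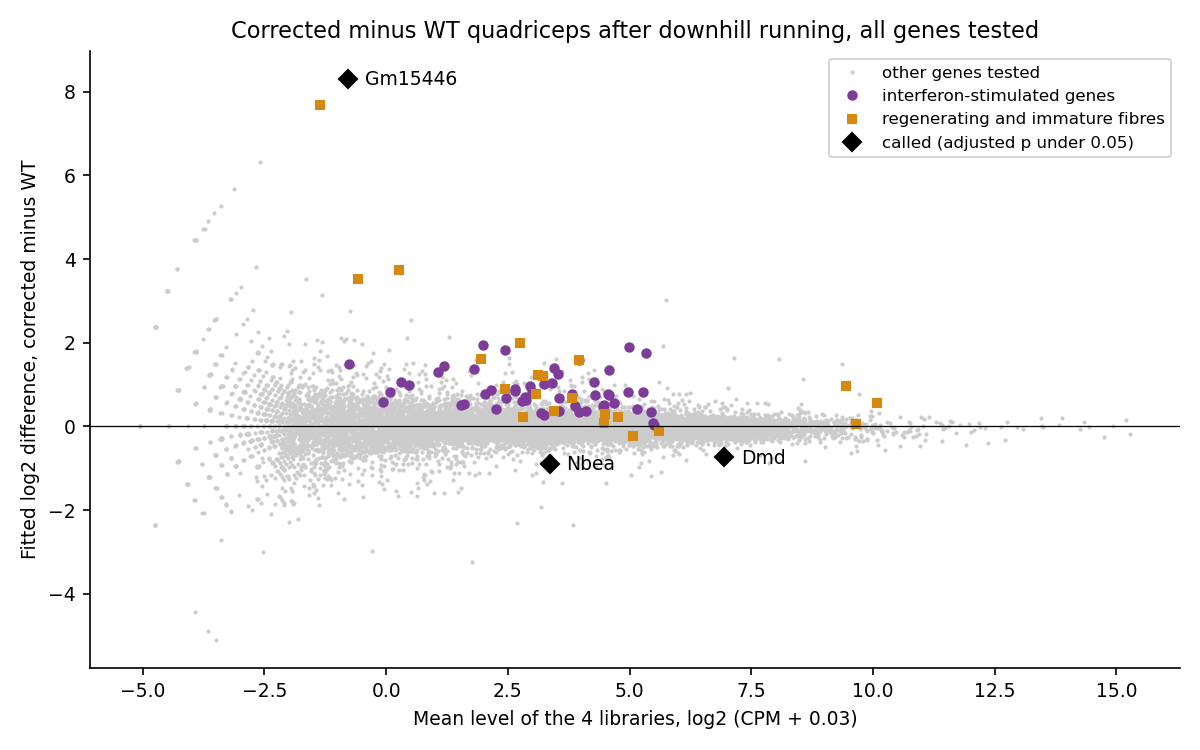
Fitted log2 difference, corrected minus WT, of each of the 15013 genes tested (vertical axis) against its mean level in the 4 libraries (horizontal axis, log2 of CPM + 0.03). Diamonds are the 3 genes called, circles interferon-stimulated genes and squares genes of regenerating fibres. The 52 circles all lie above 0, and 19 of the 21 squares do.

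Dmd lies on chromosome X at 82948870-85206141 (GRCm38, plus strand). Its level was 95.5 and 88.8 CPM in corrected libraries, 40.7 and 41.8 CPM in delEx44 libraries, and 148 and 160 CPM in WT libraries. The 3 groups did not overlap, and corrected muscle lay between the others. Corrected muscle held 59.8% and delEx44 muscle 26.8% of the WT mean. The fitted log2 difference of corrected minus WT was -0.74 ± 0.097 (SE, n = 2 each, adjusted p = 0.025 by edgeR), with a 95% interval of -0.95 to -0.53. The value ranged from -0.80 to -0.67 when any 1 of the 4 libraries was left out. The call was lost without corrected replicate 3 (adjusted p = 0.22), WT replicate 1 (0.13) or WT replicate 2 (0.12).

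Dmd was also lower in corrected than in WT muscle in sedentary mice. At 4 weeks it averaged 161 ± 9.39 CPM in corrected, 39.7 ± 3.14 CPM in delEx44 and 217 ± 19.8 CPM in WT muscle (SD, n = 3 each). At 18 months, on that table's own scale, it stood at 205, 304 and 195 CPM in corrected, at 86.2, 86.7 and 84.2 CPM in delEx44, and at 337, 350 and 425 CPM in WT libraries. The 18-month corrected mice had received other doses, 2.5e14 for the guide and 5e13 vector genomes per kg for SpCas9, with a single-stranded guide vector. The difference between corrected and WT muscle at the run stage minus that at 4 weeks was -0.31 log2 units. Its 95% interval was -0.58 to -0.04 (unadjusted p = 0.027 by edgeR). It did not pass adjustment over all genes tested (adjusted p = 0.70 by edgeR).

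Nbea encodes neurobeachin, a scaffold protein of vesicle traffic, and lies on chromosome 3 at 55625195-56183701 (minus strand). It was at 6.78 and 7.51 CPM in corrected, 9.17 and 8.72 CPM in delEx44, and 13.5 and 13.1 CPM in WT run libraries. The 2 WT run libraries were the highest of the 15: the 3 groups at 4 weeks averaged 7.98 ± 0.971 CPM in corrected, 8.67 ± 0.576 CPM in delEx44 and 8.25 ± 0.671 CPM in WT muscle (SD, n = 3 each). At 18 months, on that table's own scale, it stood at 8.84, 9.84 and 11 CPM in corrected, at 16.5, 16.5 and 16.4 CPM in delEx44, and at 11.4, 13.3 and 9.19 CPM in WT libraries. The fitted difference in run muscle was -0.89 ± 0.13 log2 units (SE, adjusted p = 0.036 by edgeR). Its adjusted p was 0.082 to 0.23 when any 1 of the 4 libraries was left out, so the call was lost each time.

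Gm15446 is a predicted gene on chromosome 5 at 109923400-109943936 (plus strand), named here because it was 1 of only 3 calls. It had 40 and 35 counts in corrected and 47 and 30 counts in delEx44 libraries, and 0 in both WT run libraries. Each of the 13 other libraries of the table held 18 to 51 counts, WT at 4 weeks included, and the 18-month libraries held 17 to 32. Set against a floor of 3 counts per library, corrected muscle was at least 12.7-fold higher than WT (adjusted p = 0.0074 by edgeR). Without WT replicate 1 the adjusted p was 0.13.

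**Figure D2:**
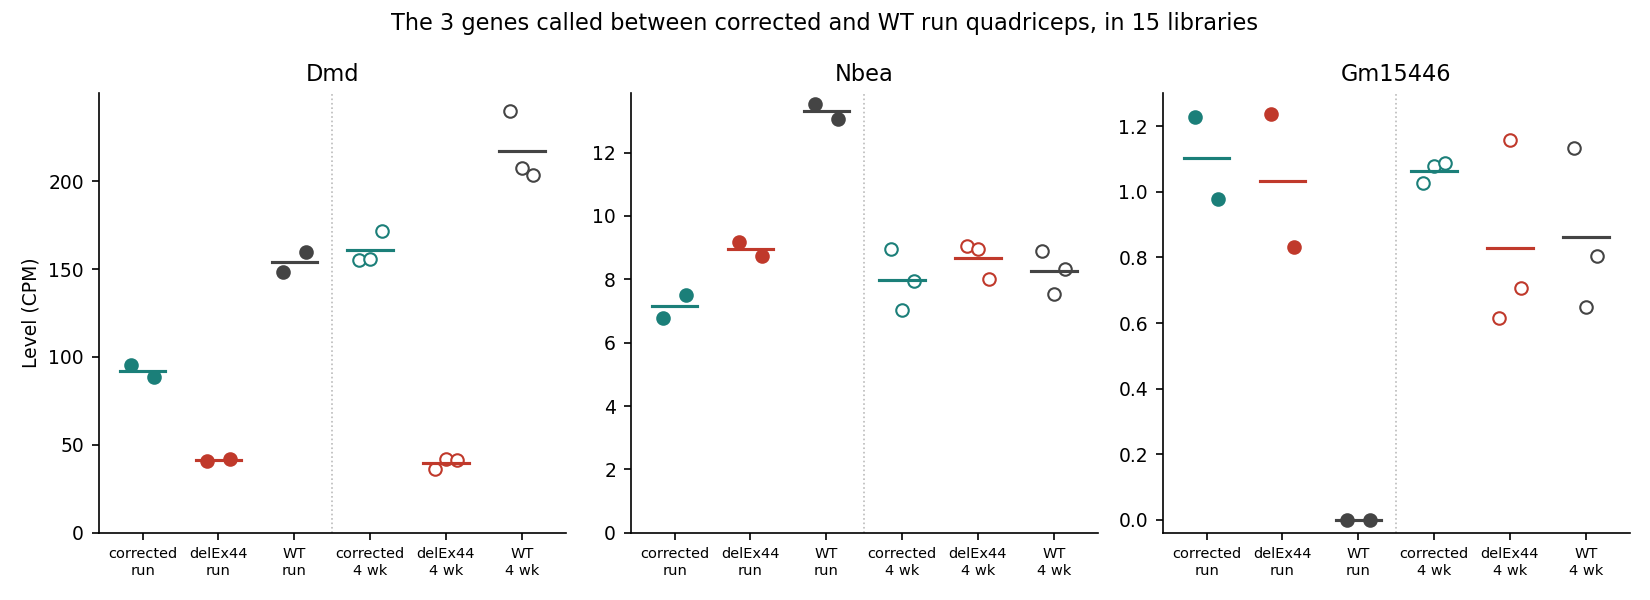
Level in CPM of Dmd, Nbea and Gm15446 in the 15 libraries of the 4-week and run table, 1 point per library, with group means as bars and filled points for run muscle. Corrected muscle lies between delEx44 and WT for Dmd, the 2 WT run libraries are the highest for Nbea, and they are the only libraries at 0 for Gm15446.

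In the dystrophin complex list 1 of 21 genes was called, Dmd itself, with a median log2 difference of -0.09 in corrected and -0.01 in delEx44 muscle against WT. Utrn, the paralog utrophin that can stand in for dystrophin at the membrane, was at 60.3 and 59.9 CPM in corrected, 74.1 and 69.3 CPM in delEx44, and 62.4 and 70.6 CPM in WT libraries. Its difference from WT was -0.15 log2 units with a 95% interval of -0.34 to 0.05. Nos1, the neuronal nitric oxide synthase that dystrophin anchors at the membrane, was at 32.8 and 26.1 CPM in corrected, 13 and 13.7 CPM in delEx44, and 33.7 and 45.1 CPM in WT libraries. Nos1 fell in delEx44 muscle (-1.56 log2 units, adjusted p = 0.00034 by edgeR), and in corrected muscle the value was -0.42 (adjusted p = 0.55). Set directly against delEx44, Nos1 was 1.14 ± 0.21 log2 units higher in corrected muscle (adjusted p = 0.0031 by edgeR), a contrast in which 10.8% of all genes were higher. Plec, the cytoskeletal linker plectin, was at 555 and 571 CPM in corrected, 509 and 637 CPM in delEx44, and 662 and 788 CPM in WT libraries. Sgca and Sgcb, whose products sit beside dystrophin in the membrane, differed from WT by -0.12 and 0.07 log2 units in corrected muscle (adjusted p = 0.73 and 0.81 by edgeR).

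Interferon-stimulated genes, which cells switch on to defend against viruses when interferon binds its receptors, formed 1 of the 2 lists with the highest median in corrected muscle, beside that of regenerating fibres. All 52 members were tested, and 0 passed the adjusted threshold by edgeR. At an unadjusted p under 0.05, 37 of 52 (71.2%) were higher and 0 lower, against 4.24% and 5.45% of all genes. Their median difference was 0.77 log2 units in corrected minus WT, where the median of all genes was 0.00. In delEx44 muscle the median was 0.46, with 9 members risen and 1 fallen. Corrected replicate 1 lay above both WT libraries for 38 members and corrected replicate 3 for 50, against 34.3% and 34.7% of all genes.

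The 2 corrected libraries were unequal in these genes, as in the lists named above. The mean level of the list was 3.01 log2 CPM in corrected replicate 1 and 3.88 in replicate 3, against 3.05 and 3.22 in delEx44 and 2.83 and 2.51 in WT libraries. Replicate 3 held more than replicate 1 of 50 of the 52 members. Without corrected replicate 3 the median difference was 0.31 and 7 members were higher at an unadjusted p under 0.05. Without corrected replicate 1 it was 1.15, and 14 members then passed the adjusted threshold. Without WT replicate 1 it was 0.94 with 30 members higher, and without WT replicate 2 it was 0.61 with 13. DESeq2 on all libraries called 9 of the 52.

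The member with the smallest p was Xaf1, an interferon-induced promoter of cell death, at 6.14 and 9.97 CPM in corrected, 5.98 and 6.73 CPM in delEx44, and 4.98 and 3.67 CPM in WT libraries. Its difference was 0.90 ± 0.21 log2 units (SE, adjusted p = 0.29 by edgeR). The guanylate-binding proteins, GTPases that attack vacuoles of intracellular pathogens, are given for their size of difference. Gbp4 was at 28.5 and 96.6 CPM in corrected, 8.19 and 11 CPM in delEx44, and 18.6 and 18.3 CPM in WT libraries. Gbp2 was at 20.1 and 48.8 CPM in corrected, 16.8 and 15.2 CPM in delEx44, and 14.5 and 12.6 CPM in WT libraries. For both genes the corrected libraries lay above the other 4, and replicate 3 was well above replicate 1.

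Among the immunity-related GTPases, members differed in how replicate 1 stood. Iigp1 was at 24.7 and 75.3 CPM in corrected, 14.9 and 13.7 CPM in delEx44, and 15.5 and 11.2 CPM in WT libraries. Tgtp1 was at 2.42 and 10.1 CPM in corrected, 0.711 and 0.914 CPM in delEx44, and 1.78 and 1.5 CPM in WT libraries. Irgm2, of the same family, was at 26.3 and 53.3 CPM in corrected, 26.3 and 35.7 CPM in delEx44, and 24.5 and 20.9 CPM in WT libraries, so that corrected replicate 1 lay below both delEx44 libraries and above both WT libraries. Other members were highest in delEx44 muscle. Oasl1, of the oligoadenylate synthetase family, was at 1.44 and 2.18 CPM in corrected, 2.45 and 3.32 CPM in delEx44, and 0.801 and 1.02 CPM in WT libraries, and it rose in delEx44 (adjusted p = 0.0055 by edgeR). Slfn2 was at 6.94 and 10.9 CPM in corrected, 15.3 and 15.6 CPM in delEx44, and 6.64 and 4.32 CPM in WT libraries. Tgtp1 and Tgtp2 are near-identical copies whose reads the counting could have split, so their values are uncertain.

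Promoters of 4 of these genes are shown because many members share a sequence that the list did not use. The interferon-stimulated response element is bound by the factors that interferon signalling activates, and its core was searched as GAAANNGAAA on either strand, the reverse being TTTCNNTTTC. It was found in the 250 bases before the start of 20 of the 37 members that matched a RefSeq promoter (54.1%). Over all promoter windows it was found in 978 of 32851 (2.98%). The first share counts genes and the second counts windows, so a gene with several windows had more chances to match. Only members with a match are printed. A match describes the letters and is no proof of a site. The 60 bases around the match follow, 5′ to 3′ on the strand of the gene (RefSeq, GRCm38.p6), with the match in capitals.
Tgtp1 (chr11:48992289-48992348, minus strand): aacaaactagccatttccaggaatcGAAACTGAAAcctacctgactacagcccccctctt
Gbp3 (chr3:142559980-142560039, plus strand): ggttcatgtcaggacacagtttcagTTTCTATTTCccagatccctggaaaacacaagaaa
Gbp5 (chr3:142496744-142496803, plus strand): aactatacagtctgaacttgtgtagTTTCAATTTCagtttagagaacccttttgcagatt
Gbp2 (chr3:142620579-142620638, plus strand): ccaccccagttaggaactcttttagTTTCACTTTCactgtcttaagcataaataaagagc
The match begins 77 bases before the start of Tgtp1, 39 before Gbp3, 165 before Gbp5 and 59 before Gbp2. Gbp3 was at 13.4 and 33.4 CPM in corrected, 9.56 and 9.08 CPM in delEx44, and 9.25 and 6.38 CPM in WT libraries. Gbp5 was at 8.96 and 22.5 CPM in corrected, 3.77 and 4.76 CPM in delEx44, and 6.88 and 5.02 CPM in WT libraries.

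Sedentary libraries, other than the 4 compared, had the same direction. All 52 members were above WT in corrected muscle at 4 weeks, with a median of 0.73 log2 units. All 52 were above it at 18 months, with a median of 1.41. The 18-month corrected mice had received other doses, as given above, and those libraries had their own fit. Both medians come from fitted values with no test, and the list was chosen with such results known.

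Genes of antigen presentation, many of which interferon also raises, stood above WT in corrected muscle as well. Of the 18 genes tested for major histocompatibility complex class I and the immunoproteasome, 9 were higher and 0 lower at an unadjusted p under 0.05, with a median of 0.41 log2 units in corrected and 0.33 in delEx44 muscle. Tap1, the peptide transporter of this pathway, was at 12.8 and 24.6 CPM in corrected, 10.8 and 12.3 CPM in delEx44, and 8.81 and 8.55 CPM in WT libraries (1.11 ± 0.29 log2 units, adjusted p = 0.35 by edgeR). B2m, the shared light chain of class I, was at 264 and 278 CPM in corrected, 299 and 251 CPM in delEx44, and 218 and 159 CPM in WT libraries. Of 10 class II genes, 5 were higher and 0 lower, with a median of 0.48 in corrected and 1.36 in delEx44 muscle, where 7 rose. H2-Ab1 was at 60.1 and 74.6 CPM in corrected, 140 and 97.3 CPM in delEx44, and 48.3 and 38.8 CPM in WT libraries. Without corrected replicate 3, 2 class I and 0 class II genes were higher at that p, and without WT replicate 2, 1 and 0. Without WT replicate 1 they were 12 and 4.

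Macrophage and monocyte genes lay slightly above WT in corrected muscle and far above it in delEx44 muscle. Of 30 members, 0 passed the adjusted threshold, 10 were higher and 0 lower at an unadjusted p under 0.05 by edgeR, and 27 rose in delEx44. The median difference was 0.41 log2 units in corrected and 2.16 in delEx44 muscle. The list level was 3.26 and 3.78 log2 CPM in corrected, 5.47 and 5.42 in delEx44, and 3.07 and 2.98 in WT libraries. In bulk muscle, fewer cells of a type and less RNA per cell cannot be told apart. Without corrected replicate 3 the median was 0.16 and 1 member was higher, and without corrected replicate 1 they were 0.65 and 15. Without WT replicate 1 or WT replicate 2, 4 and 3 members were higher.

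Trem2, a lipid-sensing receptor of tissue macrophages, was at 1.87 and 2.79 CPM in corrected, 19.4 and 14.4 CPM in delEx44, and 1.01 and 0.875 CPM in WT libraries (1.31 ± 0.34 log2 units, adjusted p = 0.34 by edgeR). Cd68, a lysosomal marker of macrophages, was at 8.65 and 15.3 CPM in corrected, 51.4 and 63.1 CPM in delEx44, and 8.3 and 8.1 CPM in WT libraries. Mmp12, the macrophage elastase, was at 0.522 and 1.45 CPM in corrected, 74.3 and 42.5 CPM in delEx44, and 0.237 and 0.0565 CPM in WT libraries. In these 3 genes the corrected libraries lay above both WT libraries and far below both delEx44 libraries. The list was not uniform: 26 members were above 0 in corrected muscle and 4 below, namely Cd163, Folr2, Csf1r and Mrc1, at -0.38, -0.16, -0.10 and -0.02 log2 units. Cd163, a scavenger receptor of resident macrophages, was at 20.6 and 18 CPM in corrected, 34.2 and 23.6 CPM in delEx44, and 17.6 and 32.4 CPM in WT libraries, without a call in delEx44 either.

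Chemokines and their receptors, which draw leukocytes into tissue, had 8 of 27 members higher and 0 lower at an unadjusted p under 0.05. Their median was 0.70 log2 units in corrected and 1.94 in delEx44 muscle. Cxcl9 and Cxcl10 also stood in the interferon list and Ccr2 in the macrophage list. Ccl4, an attractant of monocytes and lymphocytes and the member with the smallest p, was at 0.0921 and 0.195 CPM in corrected, 0.263 and 0.609 CPM in delEx44, and 0 and 0.0282 CPM in WT libraries (adjusted p = 0.43 by edgeR). Ccl8, a monocyte attractant, was at 2.79 and 3.24 CPM in corrected, 10.5 and 16.5 CPM in delEx44, and 1.54 and 1.13 CPM in WT libraries. Ccr2, the receptor of inflammatory monocytes, was at 14.4 and 18 CPM in corrected, 19.1 and 49.6 CPM in delEx44, and 9.34 and 8.58 CPM in WT libraries. Without corrected replicate 3 the median was 0.40 and 1 member was higher, and without WT replicate 1 or WT replicate 2, 5 and 3 were. RNA of lymphocyte markers was scarce: Cd3e of T cells was at 0.0921 and 0.0838 CPM in corrected, against 0.237 and 0.0565 CPM in WT. Gzmb, a granzyme of killer cells and the member with the smallest p, was at 0.245 and 0.112 CPM in corrected, 0.211 and 0.415 CPM in delEx44, and 0.0297 and 0 CPM in WT libraries (adjusted p = 0.46 by edgeR). Of 21 genes tested for T, B and killer cells, 13 were above 0 and 8 below, 1 was higher and 0 lower at that p, and the median was 0.21. Of 11 neutrophil genes 0 were higher or lower at that p, with a median of -0.35.

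**Figure D3:**
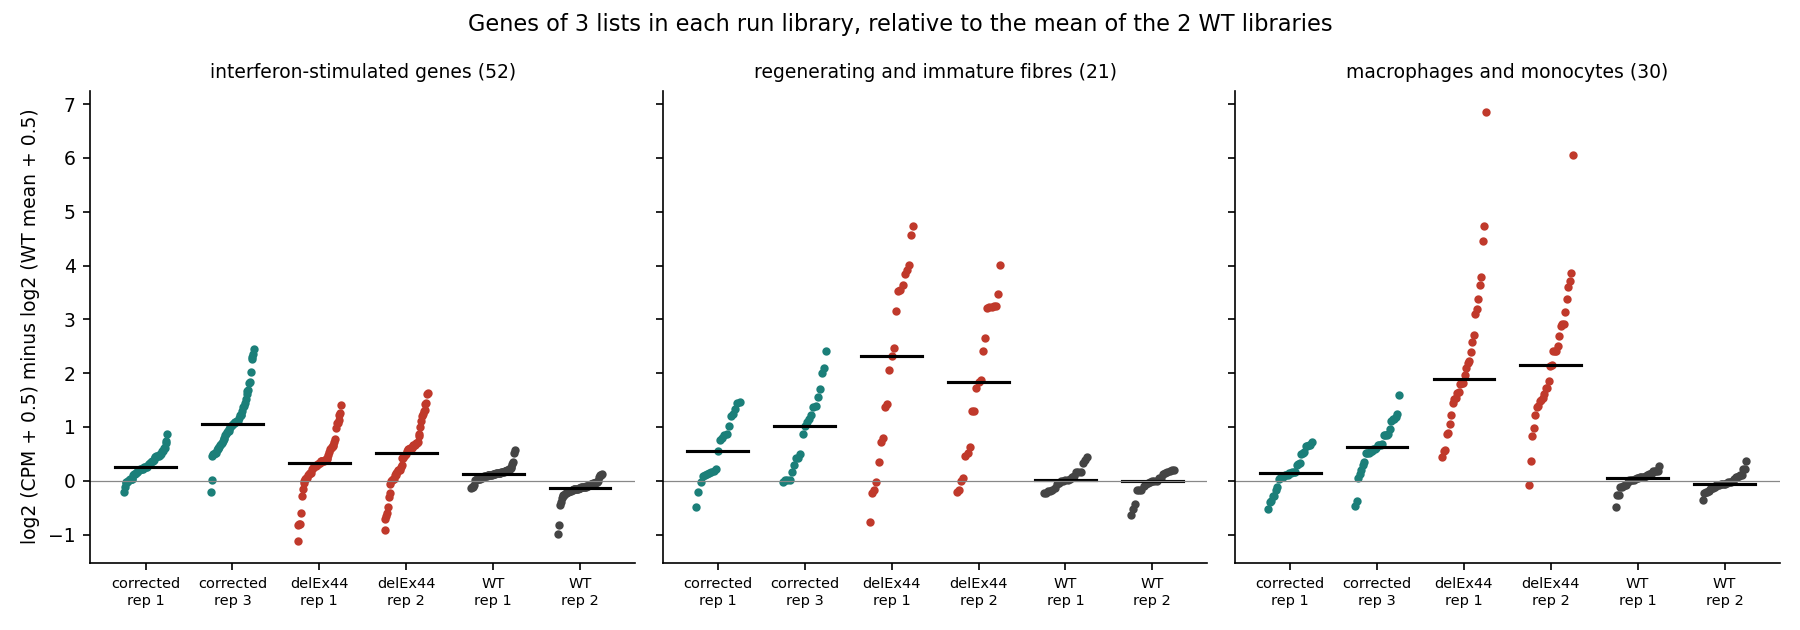
Each point is a gene of the interferon, regenerating fibre or macrophage list in 1 run library, as log2 (CPM + 0.5) minus the same for the mean of the 2 WT libraries, and bars are medians over the list. Corrected replicate 3 is the highest of the 6 libraries in interferon-stimulated genes, while both delEx44 libraries are the highest in the other 2 lists.

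Genes of regenerating and immature fibres stood between their delEx44 and WT levels in corrected muscle. Of 21 members, 0 passed the adjusted threshold, 10 were higher (47.6%) and 0 lower at an unadjusted p under 0.05 by edgeR, and 14 rose in delEx44. The median difference was 0.77 log2 units in corrected and 2.14 in delEx44 muscle. The list level was 4.06 and 4.46 log2 CPM in corrected, 5.74 and 5.38 in delEx44, and 3.28 and 3.14 in WT libraries, so the groups did not overlap. The corrected median was 0.88 without WT replicate 1 and 0.63 without corrected replicate 3, with 8 and 7 members higher. It was 1.12 without corrected replicate 1. DESeq2 called 7 of the 21.

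Myh3, embryonic myosin heavy chain, was at 8.19 and 13.2 CPM in corrected, 84.5 and 51 CPM in delEx44, and 2.7 and 2.71 CPM in WT libraries. Myh8, perinatal myosin heavy chain, was at 9.94 and 14.3 CPM in corrected, 70.7 and 53.8 CPM in delEx44, and 4.39 and 6.04 CPM in WT libraries. Both myosins were higher in each corrected library than in each WT library, with fitted differences of 1.98 and 1.22 log2 units and adjusted p-values of 0.36 and 0.41 by edgeR. Tnnt2, the cardiac troponin T that immature skeletal fibres also make, was at 4.97 and 6.48 CPM in corrected, 27.4 and 14.5 CPM in delEx44, and 1.99 and 1.78 CPM in WT libraries.

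Both genes for myoblast fusion were near or at 0 in WT muscle. Mymk (myomaker, listed as Tmem8c) was at 1.32 and 3.02 CPM in corrected, 15.1 and 6.84 CPM in delEx44, and 0.237 and 0.0847 CPM in WT libraries. Mymx (myomixer, listed as Gm7325) had 25 and 24 counts in corrected and 200 and 78 counts in delEx44 libraries, and 0 in both WT libraries. Against a floor of 3 counts per library it was at least 8.28-fold higher in corrected and at least 42.8-fold higher in delEx44 than in WT muscle. Its adjusted p in corrected muscle was 0.24 by edgeR. H19, an imprinted non-coding RNA of fetal muscle, was at 799 and 1053 CPM in corrected, 1967 and 1567 CPM in delEx44, and 403 and 544 CPM in WT libraries.

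Myod1, which commits cells to the myogenic fate, was at 25.5 and 36.2 CPM in corrected, 20.9 and 31 CPM in delEx44, and 45.3 and 26.7 CPM in WT libraries. Myog, which drives differentiation of myogenic cells, was at 7.27 and 13.9 CPM in corrected, 36.4 and 23.3 CPM in delEx44, and 6.64 and 5.76 CPM in WT libraries. Of 14 satellite cell genes, 3 were higher and 0 lower at an unadjusted p under 0.05, and Pax7, the defining one, was at 2.33 and 3.18 CPM in corrected, 3.74 and 4.96 CPM in delEx44, and 3.17 and 3.64 CPM in WT libraries. Of 28 cell cycle genes, 0 were higher and 1 lower, with a median of -0.12 in corrected (0.15 without WT replicate 1) and 0.75 in delEx44 muscle.

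**Figure D4:**
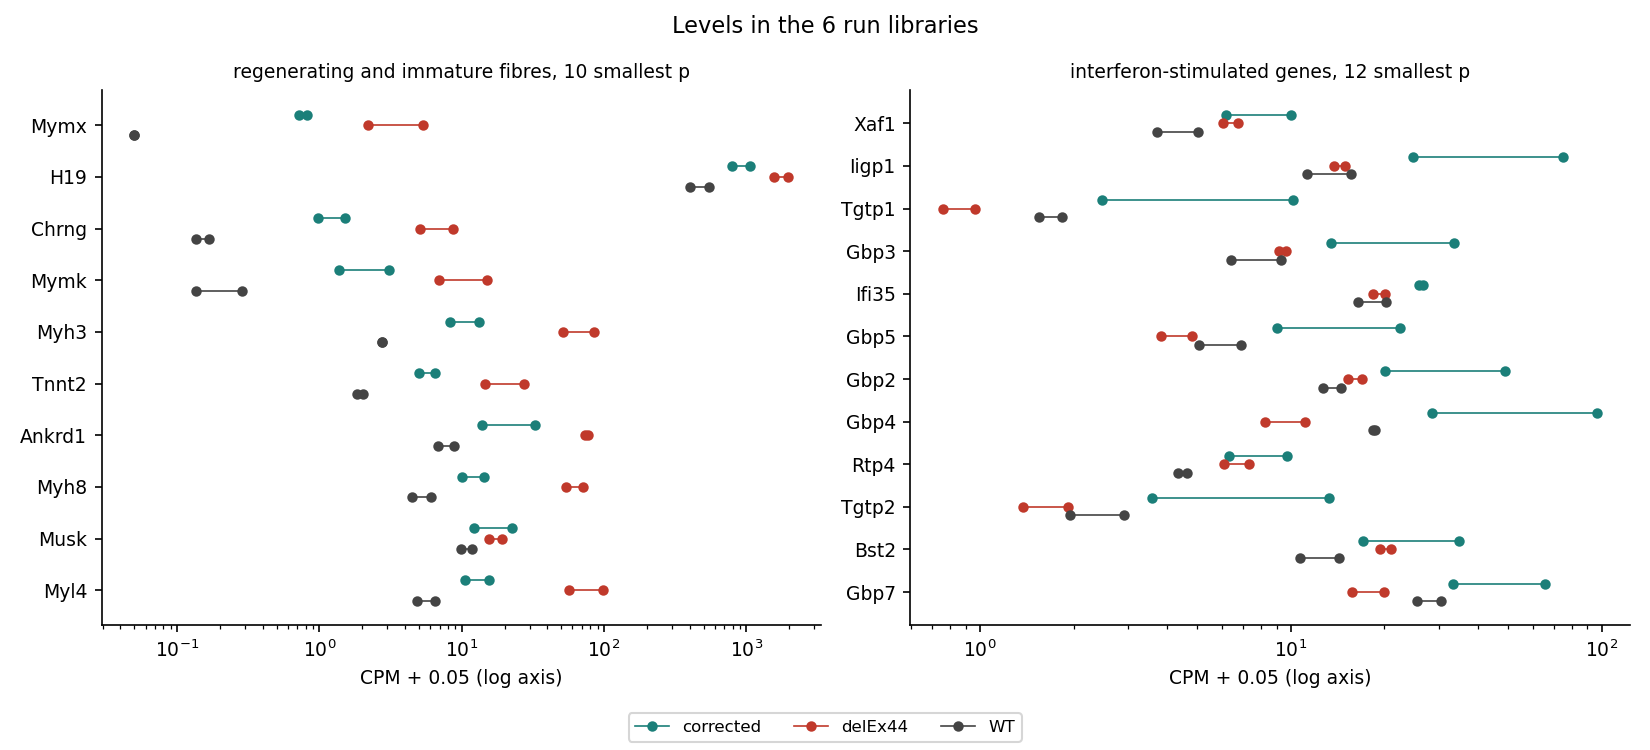
Levels of the 10 regenerating fibre genes and the 12 interferon-stimulated genes with the smallest p, as CPM + 0.05 on a log axis, 2 points joined per group for the 2 libraries. In the left panel the order is delEx44, corrected, WT for 9 of the 10 genes and corrected and delEx44 libraries overlap for Musk, and in the right panel both corrected libraries lie above both WT libraries for all 12 genes.

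Genes of the neuromuscular junction and of denervation, which fibres raise when the nerve contact is lost or immature, lay mostly above WT in corrected muscle. The fitted difference was above 0 for 16 members and below 0 for 4. Of 20 members, 6 were higher and 1 lower at an unadjusted p under 0.05, with medians of 0.22 in corrected and 0.54 in delEx44 muscle. Without WT replicate 1, 4 were higher and 1 lower. Chrng, the fetal subunit of the acetylcholine receptor, was at 0.921 and 1.45 CPM in corrected, 8.56 and 5.04 CPM in delEx44, and 0.119 and 0.0847 CPM in WT libraries. Its adult counterpart Chrne was at 26.4 and 25.9 CPM in corrected, 21.9 and 24.4 CPM in delEx44, and 25 and 24.9 CPM in WT libraries. Chrnb1, the shared beta subunit, was at 50.5 and 54.1 CPM in corrected, 76.1 and 77.7 CPM in delEx44, and 36.8 and 40.8 CPM in WT libraries (0.43 ± 0.088 log2 units, adjusted p = 0.21 by edgeR). Gadd45a, a stress gene that denervated muscle raises, was at 32.9 and 33.1 CPM in corrected, 38.2 and 36.9 CPM in delEx44, and 24.4 and 20.6 CPM in WT libraries (0.56 ± 0.10 log2 units, adjusted p = 0.14 by edgeR). In the fetal subunit, the beta subunit and Gadd45a the corrected libraries lay between the other 2 groups. Chrng, Musk, Myog, Ncam1 and Chrna1 also stood in the list of regenerating fibres.

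Calcium handling and excitation genes, which turn the nerve signal into contraction, were the list with the largest share on the low side at an unadjusted p under 0.05. Of 20 members, 0 were higher and 5 lower (25%), and the median was -0.13 log2 units in corrected and -0.30 in delEx44 muscle. Ryr1, the calcium release channel, was at 2513 and 2289 CPM in corrected, 2308 and 2512 CPM in delEx44, and 2865 and 3215 CPM in WT libraries (-0.34 ± 0.12 log2 units, adjusted p = 0.42 by edgeR). The sodium channel Scn4a was at 434 and 424 CPM in corrected, 309 and 413 CPM in delEx44, and 504 and 571 CPM in WT libraries. Without WT replicate 2 or without corrected replicate 3, 0 were lower, and without WT replicate 1, 6 were. Without corrected replicate 1, 2 were lower.

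The medians of most other fibre and tissue lists lay close to that of all genes. The fast sarcomere list had a median of -0.03 and that of oxidative phosphorylation 0.07 log2 units, with 0 of 17 and 1 of 35 members past an unadjusted p of 0.05. The slow sarcomere list had a median of -0.28, with 0 of 15 past it. Myh7, slow myosin, was at 139 and 187 CPM in corrected, 191 and 92.3 CPM in delEx44, and 335 and 267 CPM in WT libraries (adjusted p = 0.79 by edgeR). Of 38 collagen and matrix genes, 3 were higher and 0 lower, with a median of 0.11 in corrected and 0.75 in delEx44 muscle, where 26 rose. That median joins 2 unlike libraries: corrected replicate 1 lay below both WT libraries for 23 of the 38 (60.5%), and replicate 3 above both for 30 (78.9%). Lum, the collagen-binding proteoglycan lumican and the member with the smallest p, was at 98.3 and 120 CPM in corrected, 167 and 186 CPM in delEx44, and 75.4 and 82.3 CPM in WT libraries (0.47 ± 0.12 log2 units, adjusted p = 0.30 by edgeR). Col3a1, a collagen of scar tissue, was at 962 and 1296 CPM in corrected, 1807 and 2412 CPM in delEx44, and 959 and 788 CPM in WT libraries.

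Fat, metabolic and stress lists showed few members apart from WT. Of 20 adipocyte genes, 1 was higher and 1 lower at an unadjusted p under 0.05, with a median of -0.20 in corrected and -1.21 in delEx44 muscle. Without WT replicate 1 the corrected median was 1.11, so its sign rested on that library. Lep, the hormone leptin, was at 5.98 and 3.35 CPM in corrected, 4.11 and 2.16 CPM in delEx44, and 37.8 and 9.96 CPM in WT libraries, and WT replicate 1, the library richest in fat transcripts, was the highest. Of 26 genes of fatty acid oxidation, 1 was higher and 0 lower, with a median of -0.07 in corrected and -0.52 in delEx44 muscle, where 18 fell. Ucp3, a mitochondrial uncoupling protein of muscle, was at 304 and 126 CPM in corrected, 102 and 16.2 CPM in delEx44, and 79.3 and 59.4 CPM in WT libraries. Of 23 genes of glycolysis and glycogen, 2 were higher and 0 lower. Pgk1, phosphoglycerate kinase of glycolysis, was at 444 and 411 CPM in corrected, 395 and 362 CPM in delEx44, and 336 and 337 CPM in WT libraries (0.34 ± 0.11 log2 units, adjusted p = 0.39 by edgeR). Of 22 immediate early genes, 2 were higher and 0 lower, and Ier3 was at 8.96 and 6.7 CPM in corrected, 7.61 and 8.53 CPM in delEx44, and 4.36 and 4.57 CPM in WT libraries (0.81 ± 0.17 log2 units, adjusted p = 0.24 by edgeR). Of 18 complement genes, 2 were higher and 1 lower, and Cd55, which shields cells from complement, was at 99.2 and 99.4 CPM in corrected, 131 and 149 CPM in delEx44, and 72.4 and 67.7 CPM in WT libraries.

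The member with the smallest p in each remaining list, none past the adjusted threshold by edgeR, differed from WT in corrected muscle as follows. Foxo4, a regulator of atrophy genes, stood at -0.37 log2 units and Cox6a2, a muscle subunit of cytochrome oxidase, at -0.26. Rrm1, a ribonucleotide reductase subunit of dividing cells, stood at -0.20, Myh11 of smooth muscle at -0.27 and S100b of Schwann cells at -0.41. The calcium pumps Atp2a1 of fast and Atp2a2 of slow fibres stood at -0.24 and -0.38. Alas2 of haem synthesis in red cells stood at -0.89 and Retnlg of neutrophils at -0.99. Msc of satellite cells stood at 0.75, Ly6a of fibro-adipogenic progenitors at 0.54, Perp of the p53 targets at 0.67 and Col2a1 of cartilage at 1.67. Chac1, a stress response gene, stood at 3.03, and was at 173 and 18.7 CPM in corrected, 53.1 and 15.6 CPM in delEx44, and 5.64 and 17.8 CPM in WT libraries, so that corrected replicate 1 alone was far above the rest of the corrected and WT libraries.

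The clock genes lay on both sides of WT. Of 18 members, 2 were higher and 4 lower at an unadjusted p under 0.05. Dbp, an output of the clock, was at 127 and 35.8 CPM in corrected, 134 and 114 CPM in delEx44, and 14.5 and 28.4 CPM in WT libraries. Arntl, its positive arm, was at 21.6 and 31.5 CPM in corrected, 8.22 and 14.5 CPM in delEx44, and 46 and 52.2 CPM in WT libraries. Ciart, a repressor within the clock and the member with the smallest p, was at 6.48 and 1.45 CPM in corrected, 12.1 and 4.35 CPM in delEx44, and 0.742 and 1.04 CPM in WT libraries (adjusted p = 0.40 by edgeR). For Dbp and Ciart the 2 corrected libraries differed widely from each other. The labels give no time of day for the tissue, and its part in the result was not tested.

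A list of 10 genes low in delEx44 run muscle in an earlier analysis of these data is given as values only. Their median was -0.20 log2 units in corrected and -3.01 in delEx44 muscle. Dusp26, a phosphatase gene, was at 53.7 and 45.5 CPM in corrected, 7.83 and 6.7 CPM in delEx44, and 65.8 and 80.4 CPM in WT libraries. Smox, spermine oxidase, was at 1021 and 776 CPM in corrected, 221 and 196 CPM in delEx44, and 489 and 408 CPM in WT libraries. Corrected muscle thus lay between the other groups for Dusp26 and above both for Smox.

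**Figure D5:**
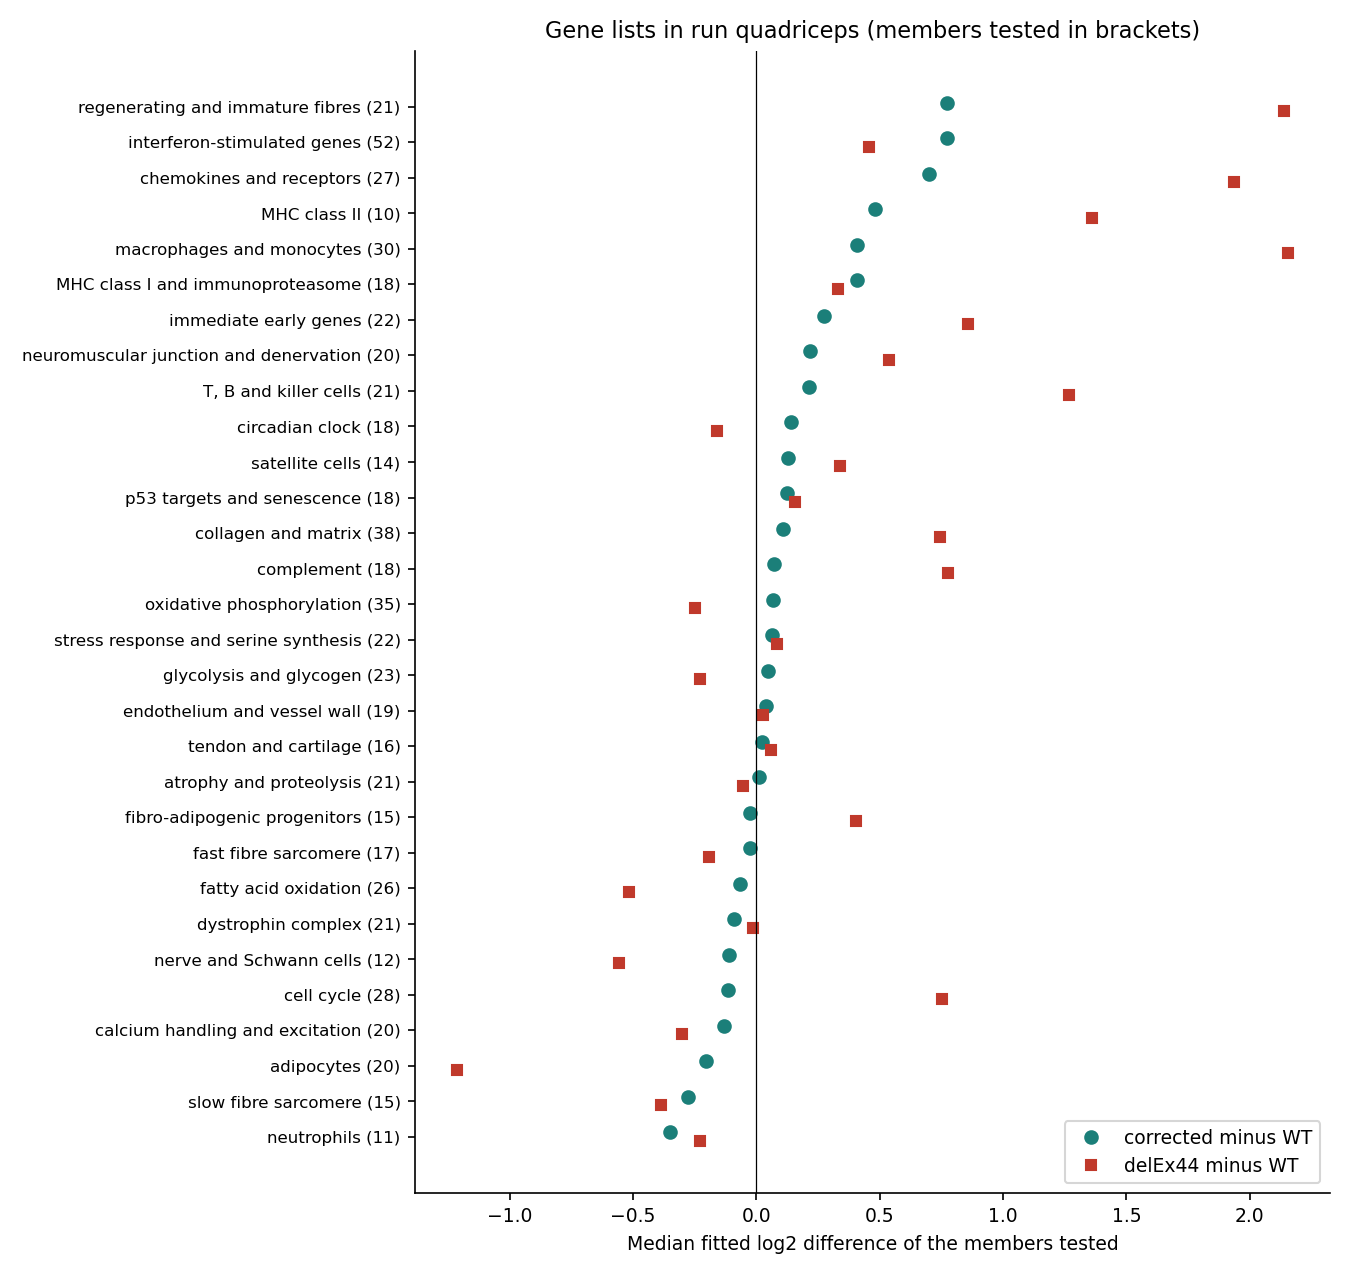
Median fitted log2 difference of each gene list, as corrected minus WT (circles) and delEx44 minus WT (squares) after running, for lists with at least 5 members tested. Both differences use the same WT libraries. Regenerating fibres lie at 0.77 and 2.14 and macrophages at 0.41 and 2.16, while interferon-stimulated genes lie at 0.77 and 0.46.

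Genes that set delEx44 apart from WT at 4 weeks were followed in the run libraries, which entered their choice through the shared estimate of spread and the filter on low counts. At 4 weeks 1482 genes (9.87%) passed and were at least 1 log2 unit higher in delEx44 than in WT muscle, and 362 (2.41%) passed and were at least 1 unit lower. In run muscle the median of the higher set was 0.24 log2 units in corrected and 1.21 in delEx44 against WT. The median of the lower set was -0.12 in corrected and -0.79 in delEx44. Of the 1482 genes, 0 rose in corrected and 915 rose in delEx44 muscle, and of the 362, 1 fell in corrected (Dmd) and 158 fell in delEx44. Over all 15013 genes only 1 rose and 2 fell in corrected muscle. At an unadjusted p under 0.05 by edgeR, 178 of the 1482 were higher in corrected muscle (12%) and 11 lower (0.742%). Of the 362, 17 were higher (4.7%) and 36 lower (9.94%). The shares over all genes were 4.24% and 5.45%. The mean level of the 1482 genes was 0.47 and 0.77 log2 CPM in corrected, 1.61 and 1.67 in delEx44, and 0.47 and 0.25 in WT libraries. Corrected replicate 1 thus matched WT replicate 1 to 2 decimals, and replicate 3 lay above both WT libraries. The corrected median of the higher set was 0.10 without corrected replicate 3, 0.34 without corrected replicate 1, 0.36 without WT replicate 1 and 0.16 without WT replicate 2.

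Whether the difference between corrected and WT muscle changed between 4 weeks and the run stage was tested as an interaction. No gene passed (0%) by edgeR, and 1035 had an unadjusted p under 0.05, while limma-voom called 1 and DESeq2 26. Since the run mice were also older (8 against 4 weeks), effects of running and of age cannot be told apart here. The interferon list had a median interaction of 0.02 log2 units, that of regenerating fibres 0.54 and that of macrophages -0.29. Of the 1455 genes with an unadjusted p under 0.05 in run muscle (9.69%), 960 had the same sign of corrected minus WT at 4 weeks (66%), against 53.2% of the other genes. At 18 months, with other doses as given above, 1087 of 1410 had the same sign (77.1%), against 58.3% of the others.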

How the data were processed

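The authors deposited raw counts for each gene, and levels and differences were computed from them here. The submitters' processing notes name STAR 2.7.2b, Bowtie2 2.3.4.3, HTSeq, SAMtools 1.9, edgeR and Trim Galore, and the mm10 build (the same assembly as GRCm38). Neither the annotation nor whether reads were counted by strand is stated there, so overlapping and antisense genes cannot be separated. The 5 records that name no gene (27.4% to 34.2% of records per library) were left out, and 0 columns lacked a sample. With 2 libraries per run group precision was limited, and the part of depth was not tested. Some named genes had few counts: Ccl4 had 3 and 7 in corrected and 0 and 1 in WT run libraries.

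All 15 libraries of the 4-week and run table, in 6 groups, entered 1 edgeR 4.0.16 quasi-likelihood fit (R 4.3.3, filterByExpr, TMM, robust dispersion). Benjamini-Hochberg adjustment covered all 15013 genes tested, with a threshold of 0.05. CPM values are counts scaled by TMM library sizes. The 9 libraries at 18 months had their own fit. Alternatives were DESeq2 1.42.0, limma-voom (limma 3.58.1), RLE size factors, other count filters, subsets of libraries and leaving out each library in turn, and those on lists and unadjusted counts were added after the data had been seen. The code was tested on simulated data.

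The comparison and the 32 lists (653 genes, 648 in the table, 6 of them under an older symbol, 633 tested) were chosen with earlier results of these data known. The level of a list averages log2 CPM (prior count 2) over its tested members. Named by rule were Dmd, Utrn, called genes of at least 5 CPM without overlap and the member of each list with the smallest p. Other members were named after their values were seen, for their role or their size. Positions come from GENCODE vM21, where 38 of 39 symbols matched once. No pair of libraries of a run group agreed within sampling noise.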

Additional observations from a re-analysis of the deposited data

How the results depend on the processing

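No paired analysis was possible because the labels pair no corrected run library with a WT run library. The count of genes called between corrected and WT run muscle was 3 with RLE size factors, without the count filter and with a filter of 1 CPM, 4 with limma-voom, 75 with DESeq2, 0 on the 6 run libraries, 0 on the 4 libraries compared, and 0 to 25 when 1 library was left out. The same count at an unadjusted p under 0.05 was 857 (without WT replicate 2) to 1544 when 1 library was left out, against 1455 on all. The interaction count of 0 became 1 with RLE size factors, with limma-voom and without the count filter, 26 with DESeq2, and 0 to 5 (5 without WT replicate 2) when 1 library was left out. The 4370 genes called in delEx44 against WT became 2778 on the 6 run libraries and 2384 (without WT replicate 2) to 3187 when 1 library was left out. Dmd stayed lower in every alternative. Its difference of -0.74 and its call held with RLE, DESeq2, limma-voom and both other filters. It was -0.74 (adjusted p = 0.115) on the 6 run libraries, -0.73 (adjusted p = 0.148) on the 4 compared, and -0.80 to -0.67 when 1 library was left out. In fits with 1 library of a group, that library is assumed to vary like the other groups. Over 35 named genes and 11 alternatives, 354 of 378 values kept their direction and side of the threshold. A further 14 kept only the direction and lost the call, 10 gained a call, and 0 changed sign. Only the 3 called genes could lose a call, so all 14 losses were theirs. The other named genes had no call to lose, so the 354 says little about the stability of calls. With RLE size factors 49.1% of the genes at an unadjusted p under 0.05 were higher, against 43.8% with TMM. Of 374 list medians recomputed, 11 moved by more than the spread between libraries, all of them on leaving out 1 library. Those of the p53 and stress response lists crossed 0 without corrected replicate 3 (-0.01 each). The medians of the adipocyte and cell cycle lists also changed sign, without WT replicate 1 and within that spread, as given above. That spread came from the same 2 libraries per group and is wide where they differ, so staying within it says little about stability. The cause of these shifts was not tested, and with 2 libraries per group small differences stay below detection.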

Other observations

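The genes with the next smallest p outside the lists, chosen after their values were seen, did not pass the adjusted threshold. Tph1, tryptophan hydroxylase, the first step of serotonin synthesis outside the brain, was at 8.41 and 8.74 CPM in corrected, 2.48 and 2.63 CPM in delEx44, and 3.08 and 2.48 CPM in WT run libraries. Its difference from WT was 1.62 ± 0.25 log2 units (SE, adjusted p = 0.077 by edgeR), and corrected libraries lay above the other 4. At 4 weeks it averaged 12.3 ± 2.09 CPM in corrected, 2.78 ± 0.609 CPM in delEx44 and 8.08 ± 2.25 CPM in WT muscle (SD, n = 3 each). Vcpkmt, a lysine methyltransferase of the chaperone VCP, was at 6.23 and 7.9 CPM in corrected, 6.61 and 5.48 CPM in delEx44, and 3.59 and 3.22 CPM in WT run libraries (adjusted p = 0.077 by edgeR). At 4 weeks Vcpkmt averaged 3.09 ± 0.394 CPM in corrected, 8.45 ± 0.767 CPM in delEx44 and 3.21 ± 0.203 CPM in WT muscle.

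Irf5, an interferon regulatory factor of myeloid cells, was at 20 and 22.9 CPM in corrected, 19.9 and 22.3 CPM in delEx44, and 11.5 and 12.6 CPM in WT run libraries (adjusted p = 0.079 by edgeR). The corrected and delEx44 libraries overlapped for Irf5 and lay above both WT libraries. Prune2 was at 14.1 and 19.7 CPM in corrected, 59.3 and 59.9 CPM in delEx44, and 5.64 and 5.5 CPM in WT run libraries (adjusted p = 0.083 by edgeR).

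Krt8, a keratin of simple epithelia, had 0 counts in both WT run libraries, as did Mymx and Gm15446. It had 6 and 13 counts in corrected and 65 and 71 counts in delEx44 libraries.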
